A study of Mus musculus with 16 samples.

Results

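The Id genes (Id1, Id2, Id3 and Id4) and the E protein genes (Tcf3, Tcf4 and Tcf12) were described in dendritic cell progenitors of tumor-bearing and tumor-free mice. The 7 genes were taken by name, as the full mouse families of inhibitors of DNA binding and of class I basic helix-loop-helix (bHLH) factors, out of 31093 gene names on the array. They have 10 probes, of which 9, for 6 genes, gave enough signal to be tested. Macrophage-dendritic cell progenitors (MDPs), which can still form monocytes, and common dendritic cell progenitors (CDPs), which derive from MDPs and form dendritic cells, were sorted from the bone marrow of female C57/Bl6 mice. The mice either carried a mammary fat pad tumor grown to 1.5 cm from PyMT-B6, a mammary carcinoma cell line, or were age-matched and tumor-free. This gives the groups MDP tumor-free, MDP PyMT-B6, CDP tumor-free and CDP PyMT-B6, with 4 samples each, numbered 2 to 5. Each sample was prepared from a pair of mice and hybridized to its own one-color Agilent array. All tumors came from 1 cell line, and all progenitors were sorted by surface markers.

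E proteins bind E-box DNA as dimers and drive lymphoid and plasmacytoid dendritic cell (pDC) genes. Id proteins dimerize with E proteins but lack a DNA-binding region, so they hold E proteins off DNA. In dendritic cells Tcf4 (E2-2) maintains the pDC fate, whereas Id2 is required by the conventional type 1 dendritic cell (cDC1). Id1 and Id3 are known as targets of BMP and TGF-beta signaling through SMAD proteins.

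The array reads each gene through 60-base probes, whose positions are those of the deposited files on mouse build mm9, and whether a probe lies in coding sequence or a UTR was not analysed here. For Id1, which was read above background on every array, for Id2, which was called between CDPs and MDPs, and for the pair of Tcf3 probes, which are described side by side, the first 30 bases of each probe are shown in lower case. The Id1 probe lies at chr2:152563083-152563142, the Id2 probe at chr12:25778904-25778963 on the minus strand, and the Tcf3 probes at chr10:79875963-79876022 (brighter) and chr10:79872639-79872698 (second), both on the minus strand.
Id1: attgttttacaatagttctatgggggtgag
Id2: tgagtgaaccttgtggactctttaattaga
Tcf3, brighter probe: atgaggaaatcgcatcagtagccgacgccg
Tcf3, second probe: cagaaaagttccttcctctcggttaaccag

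E-boxes have the letters CANNTG, which read the same on both strands. The 250 bases before the start of Id2, which separated CDPs from MDPs, are shown with their E-box in capitals (RefSeq, build GRCm38.p6, chr12:25096093-25096342, minus strand).
Id2: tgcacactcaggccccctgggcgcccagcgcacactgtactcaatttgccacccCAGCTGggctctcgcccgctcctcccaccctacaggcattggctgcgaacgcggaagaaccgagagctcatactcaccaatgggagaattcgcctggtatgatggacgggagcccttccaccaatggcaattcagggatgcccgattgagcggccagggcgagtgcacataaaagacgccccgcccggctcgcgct
Of 32851 such windows over all genes, 66.2% hold at least 1 CANNTG, so the E-box of Id2 is a description of these letters, shared with most windows. The Id3 and Id4 windows hold 0, the Tcf3 window holds 1, and of 3 Tcf12 windows 2 hold 1 each. CAGGTG, searched on both strands, is present in 17.2% of all windows and in none of these. Entries for Id1 and Tcf4 were not used here.

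Values below are log2 signal minus the 75th percentile of the array. They compare samples for 1 probe, and levels of different probes were not compared. A probe entered the limma test if 3 or more arrays of any 1 group read it well above background, which 27433 of 39429 probes did. Called means that the fold change exceeded 1.5 and that the p-value, adjusted by Benjamini-Hochberg over all tested probes, was under 0.05. All 8 listed markers of MDPs and CDPs, among them Flt3 and Csf1r, were above background on at least 3 of 4 arrays of every group. With tumor in CDPs 6 of these 8 were lower by sign and Kit, the stem cell factor receptor, was called lower (-1.34, limma adjusted p = 0.0043). Their log2 summed signal was 5.87 to 6.19 in CDP tumor-free and 5.70 to 5.86 in CDP PyMT-B6, and the part of this in the differences given for CDPs was not tested. The arrays lay on 4 slides. Slides 2 and 3 carried 1 sample of each group, slide 1 carried 0 CDP PyMT-B6 samples and slide 4 carried 0 MDP PyMT-B6 samples. Ranges of the differences within slides are therefore given beside the pooled values of members.

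**Figure D1:**
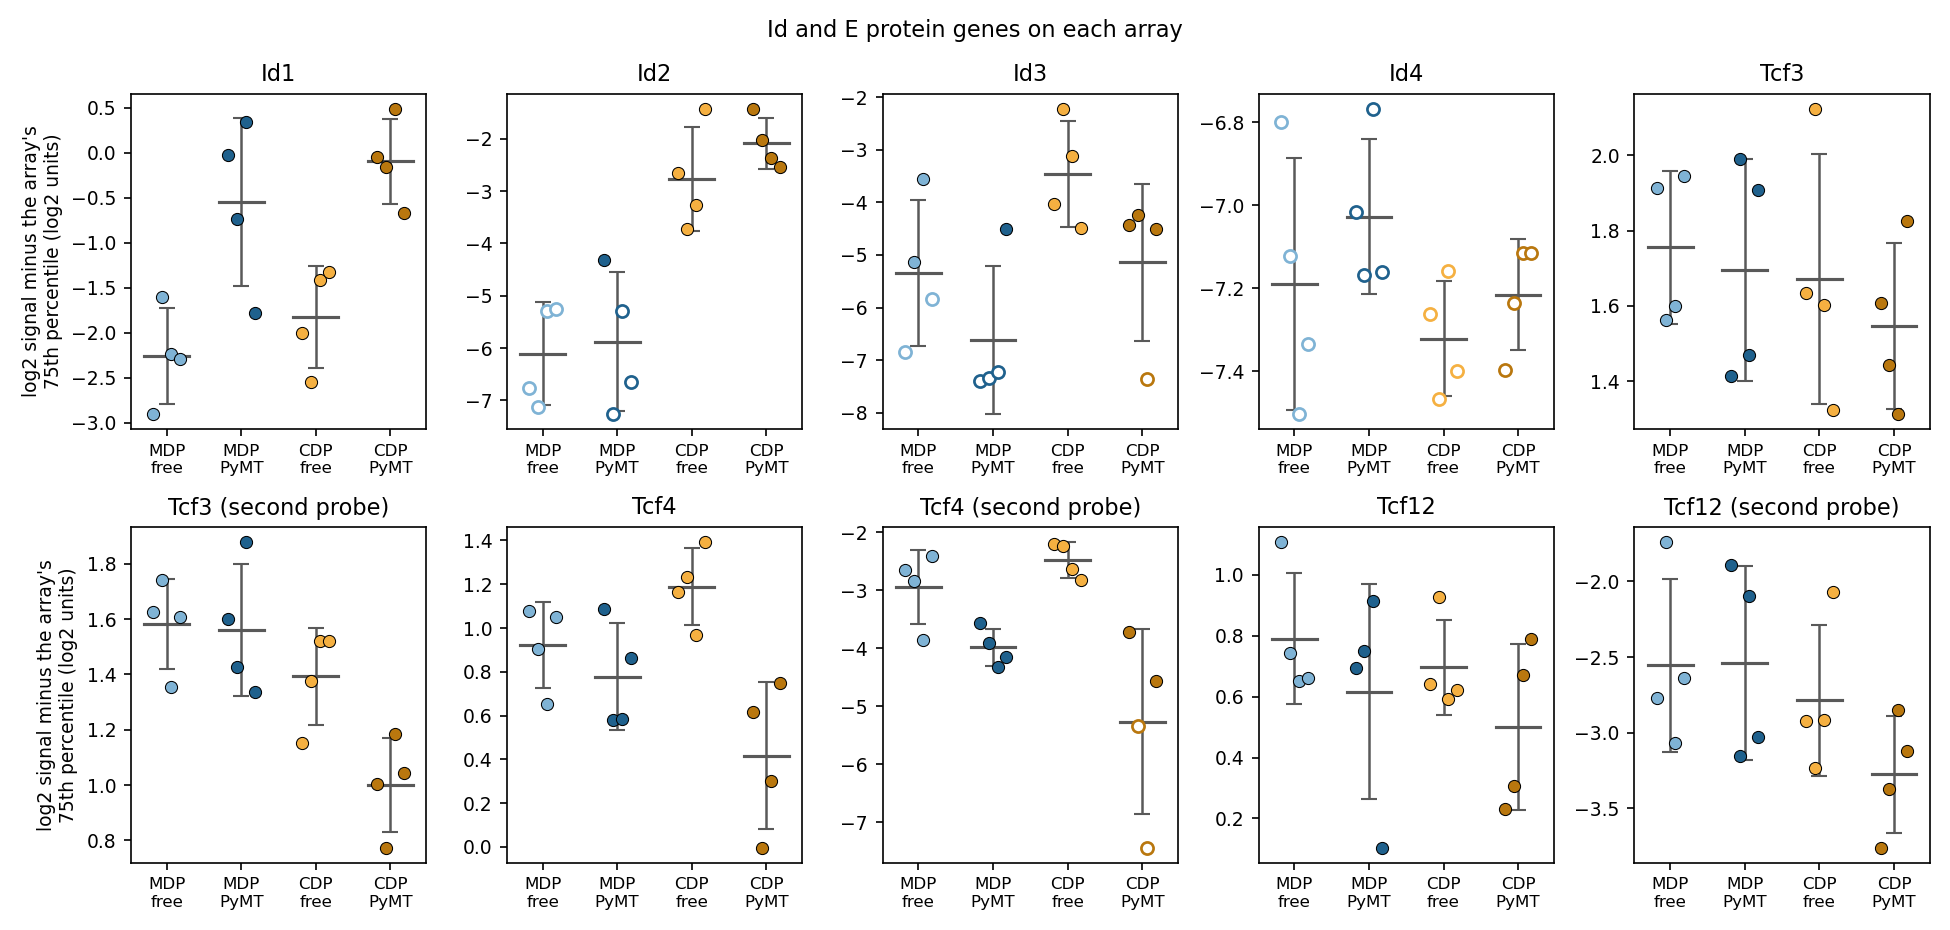
Signal of the 10 probes of Id and E protein genes on each of 16 arrays, as log2 signal minus the array's 75th percentile, by group (free, tumor-free; PyMT, PyMT-B6). Points are samples, open points were not well above background, and bars show mean and SD (n = 4). Id2 separates CDPs from MDPs, Id1 is higher with tumor, and by group mean Tcf4 is lowest in CDP PyMT-B6, where it overlaps MDP PyMT-B6.

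Id2 separated CDPs from MDPs and was the gene with the largest difference among the members. In MDP tumor-free replicates 2 to 5 the Id2 signal was -6.76, -7.13, -5.28 and -5.25, and it was well above background on 0 of 4 arrays. In MDP PyMT-B6 it was -4.32, -7.26, -5.28 and -6.66, above background on 1 of 4 arrays (replicate 2). In CDP tumor-free it was -2.66, -3.72, -3.26 and -1.43, and in CDP PyMT-B6 -1.42, -2.01, -2.36 and -2.53, above background on 4 of 4 arrays in each. Every CDP sample was above every MDP sample.

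Among tumor-free mice the fitted Id2 difference between CDPs and MDPs was 3.34 (SE 0.66, limma adjusted p = 0.0069). Since the MDP signal was at background there, Id2 was at least 5.32-fold higher in CDPs, measured against the dimmest signal above background on each array. Among PyMT-B6 mice the difference was 3.80 (SE 0.66, limma adjusted p = 0.0032), with the MDP signal above background on only 1 of 4 arrays, so that its size is not given as a fold. The exact two-sided permutation test gave 0.0286 in both, the smallest p that 4 against 4 samples allow. Within slides CDPs were higher on 4 of 4 slides for tumor-free mice (1.56 to 5.71) and on 2 of 2 for PyMT-B6 mice (4.12 to 4.90). With normexp background correction, which adds an offset that compresses dim signals, the differences were 1.39 and 1.61 and were no longer called (limma adjusted p = 0.18 and 0.096).

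The tumor did not move Id2 past the threshold in either progenitor. The PyMT-B6 minus tumor-free difference was 0.69 in CDPs (95% interval -0.72 to 2.09, limma adjusted p = 0.75), the groups overlapped, and the within-slide differences were 0.12 to 2.005. In MDPs it was 0.23 (95% interval -1.18 to 1.64, limma adjusted p = 0.88), with -1.40 to 2.33 within slides, between signals mostly at background. Id2 thus stood higher in both CDP groups than in both MDP groups, and no order within either progenitor can be given.

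Id1, an inhibitor expressed in early hematopoietic progenitors, was higher with tumor in both progenitors, short of the threshold in each. In CDP tumor-free replicates 2 to 5 the Id1 signal was -2.01, -2.55, -1.42 and -1.33, against -0.05, -0.16, 0.49 and -0.67 in CDP PyMT-B6. In MDP tumor-free it was -2.90, -1.60, -2.23 and -2.29, against -0.02, -0.74, 0.34 and -1.78 in MDP PyMT-B6. The CDP groups did not overlap, while in MDPs PyMT-B6 replicate 5 lay below tumor-free replicate 3 and the other 3 tumor samples lay above all controls. All 16 arrays were above background for this probe.

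The Id1 difference was 1.73 in CDPs (SE 0.44, 3.32-fold, limma adjusted p = 0.062, exact permutation p = 0.0286). In MDPs it was 1.71 (SE 0.44, 3.27-fold, limma adjusted p = 0.24, exact permutation p = 0.057). Within slides Id1 was higher with tumor on 3 of 3 slides that allow the comparison in each progenitor, by 1.34 to 2.45 in CDPs and 0.51 to 2.16 in MDPs. With slide as a block the CDP difference was 2.004 and was called (limma adjusted p = 0.0067), and the MDP difference was 1.43 and was not (limma adjusted p = 0.095). The difference of both changes was 0.02 (95% interval -1.30 to 1.35), and CDPs against MDPs differed by 0.43 and 0.45 without and with tumor, both within the spread.

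The summed signal of neutrophil markers was also higher with tumor in CDPs, without overlap. Its log2 (8 of 9 listed genes tested, all 8 above background on at least 3 of 4 arrays of every group) was 3.42 to 4.23 in CDP tumor-free and 4.84 to 5.60 in CDP PyMT-B6. In MDPs it was 4.82 to 5.25 and 5.08 to 5.83, which overlap. Lcn2, Mmp8 and Elane were called higher in CDP PyMT-B6, and Lcn2 in MDP PyMT-B6. By sign 5 of 8 were higher and 3 lower in each progenitor, with Ltf, Camp and Ngp lower in CDPs (-0.45, -0.65 and -0.25, not called). Erythroid markers (6 of 7 tested) had a median difference of -1.18 in CDPs and -1.02 in MDPs with tumor, with 0 called. Of all genes 1.76% and 0.0776% were called there. The part of either cell type in the Id1 difference was not tested. In sorted bulk samples, more or fewer cells of a type and a change of RNA per cell cannot be told apart.

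Id3, which shares targets and partners with Id1, was near background in most MDP samples. Its signal was -4.03, -2.22, -3.13 and -4.48 in CDP tumor-free replicates 2 to 5 and -4.43, -4.23, -7.37 and -4.52 in CDP PyMT-B6. In MDP tumor-free it was -6.85, -5.13, -3.56 and -5.83, and in MDP PyMT-B6 -7.40, -7.34, -7.22 and -4.52. It was above background on 4 of 4, 3 of 4, 2 of 4 and 1 of 4 arrays of these groups in turn. The groups overlapped in all comparisons. The tumor difference was -1.67 in CDPs (95% interval -3.55 to 0.21, limma adjusted p = 0.45) and -1.28 in MDPs (95% interval -3.16 to 0.60, limma adjusted p = 0.59), opposite in sign to that of Id1 and within the spread. Within slides these were -4.24 to -0.48, lower on 3 of 3 slides, and -2.18 to 1.32. CDPs against MDPs differed by 1.88 in tumor-free mice (limma adjusted p = 0.29), with 0.65 to 3.72 within slides. In PyMT-B6 mice the pooled difference was 1.48 (limma adjusted p = 0.25), but on the 2 slides that hold both groups it was -0.030 and 0.0025. The Id3 probe has no position in the deposited files.

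Id4, the member best known from the nervous system, was well above background on 0 of 16 arrays. Its probe lies at chr13:48358668-48358727. The values ran from -7.50 to -6.77 and were not tested, so no level or change can be given for Id4.

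Tcf4 was lower in CDP PyMT-B6 on both of its probes. On the brighter probe the signal was 1.16, 1.23, 0.97 and 1.39 in CDP tumor-free replicates 2 to 5 and 0.62, -0.0027, 0.30 and 0.75 in CDP PyMT-B6. The groups did not overlap. In MDPs it was 1.08, 0.91, 0.65 and 1.05 without tumor and 1.08, 0.58, 0.59 and 0.86 with tumor, and these overlapped. On the second, dimmer probe CDP tumor-free gave -2.20, -2.24, -2.64 and -2.82, and CDP PyMT-B6 gave -3.72, -5.34, -7.44 and -4.57, again without overlap, with replicates 3 and 4 of the latter not above background. By the means of both probes Tcf4 was lowest in CDP PyMT-B6, but CDP PyMT-B6 and MDP PyMT-B6 overlapped on both. Their difference was -0.36 on the brighter and -1.28 on the second probe (limma adjusted p = 0.21 and 0.17), not called. On slides 2 and 3 it was -0.28 and -0.12 on the brighter probe and -3.54 and -0.43 on the second. Among tumor-free mice CDPs and MDPs differed by 0.27 and 0.46 (limma adjusted p = 0.60 and 0.91). The neutrophil marker sums given above separate CDP tumor-free from CDP PyMT-B6 in the other direction. Such sums follow their brightest genes, and by sign 5 of 8 markers were higher and 3 lower with tumor in CDPs. The part of these markers in the Tcf4 difference between CDP tumor-free and CDP PyMT-B6 was not tested.

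The brighter probe differed by -0.77 in CDPs (SE 0.19, 1.71-fold, limma adjusted p = 0.053, exact permutation p = 0.0286), just short of the threshold. The second probe differed by -2.79 (SE 0.59, 6.92-fold, limma adjusted p = 0.029), which was called, with the tumor level measured on 2 of 4 arrays. The probes agree in sign and part in size. Within slides Tcf4 was lower with tumor on 3 of 3 slides on each probe, by -0.93 to -0.42 on the brighter and -4.80 to -2.29 on the second. In MDPs the differences were -0.14 (95% interval -0.54 to 0.26) and -1.04 (95% interval -2.30 to 0.21), neither called. Within slides Tcf4 was lower with tumor in MDPs too, on 3 of 3 slides on each probe. These differences were -0.50 to -0.07 on the brighter and -1.73 to -1.11 on the second probe. On the second probe 3 of 4 MDP PyMT-B6 samples lay below all controls. The test of the difference between CDPs and MDPs gave -0.63 and -1.75 on the brighter and second probe (limma unadjusted p = 0.032 and 0.054, adjusted p = 0.75 for both), so a CDP-specific fall was not shown. The call rested on single samples and on the fit. The second probe lost it without any 1 of the CDP tumor-free samples or CDP PyMT-B6 replicate 3 (limma adjusted p = 0.057 to 0.089) and when only the CDP groups were fitted (limma adjusted p = 0.15), while the brighter probe gained it with slide as a block (-0.71, limma adjusted p = 0.038), with quantile normalization (-0.82, limma adjusted p = 0.041), with only probes above background on all 16 arrays (limma adjusted p = 0.036) and without CDP PyMT-B6 replicate 5 (-0.88, limma adjusted p = 0.036).

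Tcf3, which encodes the E2A proteins E12 and E47, gave no call on its brighter probe. Over the 16 arrays that probe ran from 1.31 to 2.12 and no difference between groups exceeded its spread (-0.15 to -0.06, limma adjusted p = 0.60 to 0.99 over the 4 comparisons of groups). Within slides its tumor difference in CDPs was -0.60 to 0.19. The second probe read 1.15, 1.38, 1.52 and 1.52 in CDP tumor-free replicates 2 to 5 and 1.003, 0.77, 1.19 and 1.04 in CDP PyMT-B6, where 3 of 4 tumor samples lay below all controls. This difference was -0.39 (SE 0.16, limma adjusted p = 0.27), and -0.49 to -0.11 within slides. Against MDP PyMT-B6, at 1.60, 1.43, 1.88 and 1.34, the CDP PyMT-B6 samples were all lower, by -0.56 (SE 0.16, limma adjusted p = 0.043), which at 1.47-fold missed the fold threshold. On slides 2 and 3, which hold both groups, this difference was -0.29 to -0.24. With slide as a block it was -0.37 (limma adjusted p = 0.10). The probes, shown by their leading bases above, lie a few kilobases apart on the same strand.

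Tcf12, which encodes the E protein HEB, gave no call on either probe. The brighter probe (chr9:71706394-71706453, minus strand) had group means of 0.79 in MDP tumor-free, 0.62 in MDP PyMT-B6, 0.70 in CDP tumor-free and 0.50 in CDP PyMT-B6, with SDs of 0.22, 0.35, 0.16 and 0.27. The second probe (chr9:71692310-71692369, minus strand) was dimmer and had means of -2.56, -2.54, -2.79 and -3.28 in the same order. The CDP tumor difference was -0.20 (95% interval -0.61 to 0.22) on the brighter and -0.49 (95% interval -1.26 to 0.29) on the second probe, with overlapping groups. Within slides it was -0.66 to 0.15 on the brighter and -0.33 to 0.066 on the second probe.

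**Figure D2:**
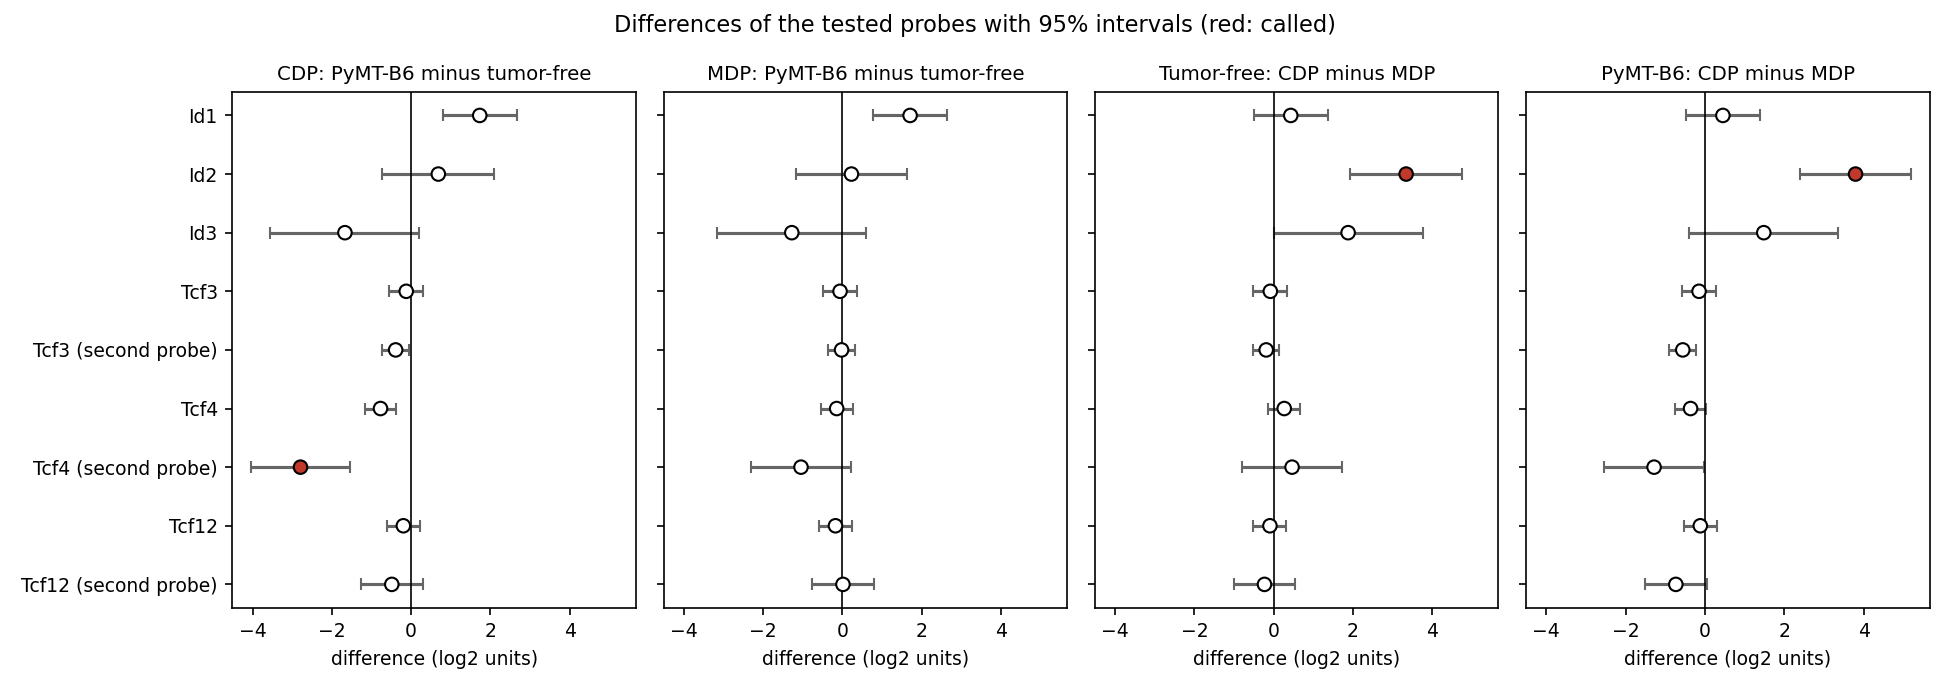
Difference between groups in log2 units for the 9 tested probes, with 95% intervals of the limma fit, in 4 comparisons. Red points were called, and they are Id2 in both comparisons of CDPs with MDPs and the second Tcf4 probe in CDPs with tumor.

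Read over the family, few probes passed the test. With tumor 1 of 9 tested probes was called in CDPs, where 1.80% of all tested probes were, and 0 of 9 in MDPs, where 0.0656% were. The lowest adjusted p in MDPs was 0.24, that of Id1, whose unadjusted p was 0.0016. For the difference between both tumor changes 0 of 9 were called, as against 0.0146% of all. For CDPs against MDPs 1 of 9 was called in each tumor state, with 6.10% of all in tumor-free and 7.26% in PyMT-B6 mice. Groups did not overlap for 3 of 9 probes in CDPs with tumor (11.1% of all), 0 of 9 in MDPs (5.19%), 1 of 9 for CDPs against MDPs without tumor (13.3%) and 2 of 9 with tumor (14.0%). The share of called probes rests on 9 probes and is a description.

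The balance of Id to E protein signal was described per array as the mean of Id1, Id2 and Id3 minus the mean of Tcf3, Tcf4 and Tcf12, each by its brightest probe. Only differences between groups can be read from it, and in MDPs it holds signals at background, since Id2 was above background on 0 of 4 and 1 of 4 and Id3 on 2 of 4 and 1 of 4 arrays of the tumor-free and PyMT-B6 group. It was -5.73 ± 0.90 (SD, n = 4) in MDP tumor-free, -5.38 ± 0.57 in MDP PyMT-B6, -3.87 ± 0.34 in CDP tumor-free and -3.26 ± 0.59 in CDP PyMT-B6. The index differed by 1.85 and 2.12 between CDPs and MDPs without and with tumor, with no overlap, whereas tumor and control groups overlapped. These sizes depend on the treatment of background and are no measure of an expression ratio. Id2 minus Tcf4 ran the same way, from -7.03 ± 1.06 in MDP tumor-free to -2.50 ± 0.60 in CDP PyMT-B6. Within CDPs it was 1.46 higher with tumor, with overlapping groups. Id1 minus Tcf4 was 2.50 higher in CDP PyMT-B6 than in CDP tumor-free, without overlap. In CDPs Id1 was wholly higher and Tcf4 wholly lower with tumor, so this lack of overlap follows from the values above. It is no further result. Id1 minus Tcf4 was 1.85 higher in MDP PyMT-B6 than in MDP tumor-free, with overlap. With normexp correction the Id minus E difference between CDPs and MDPs was 0.56 and 0.99.

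**Figure D3:**
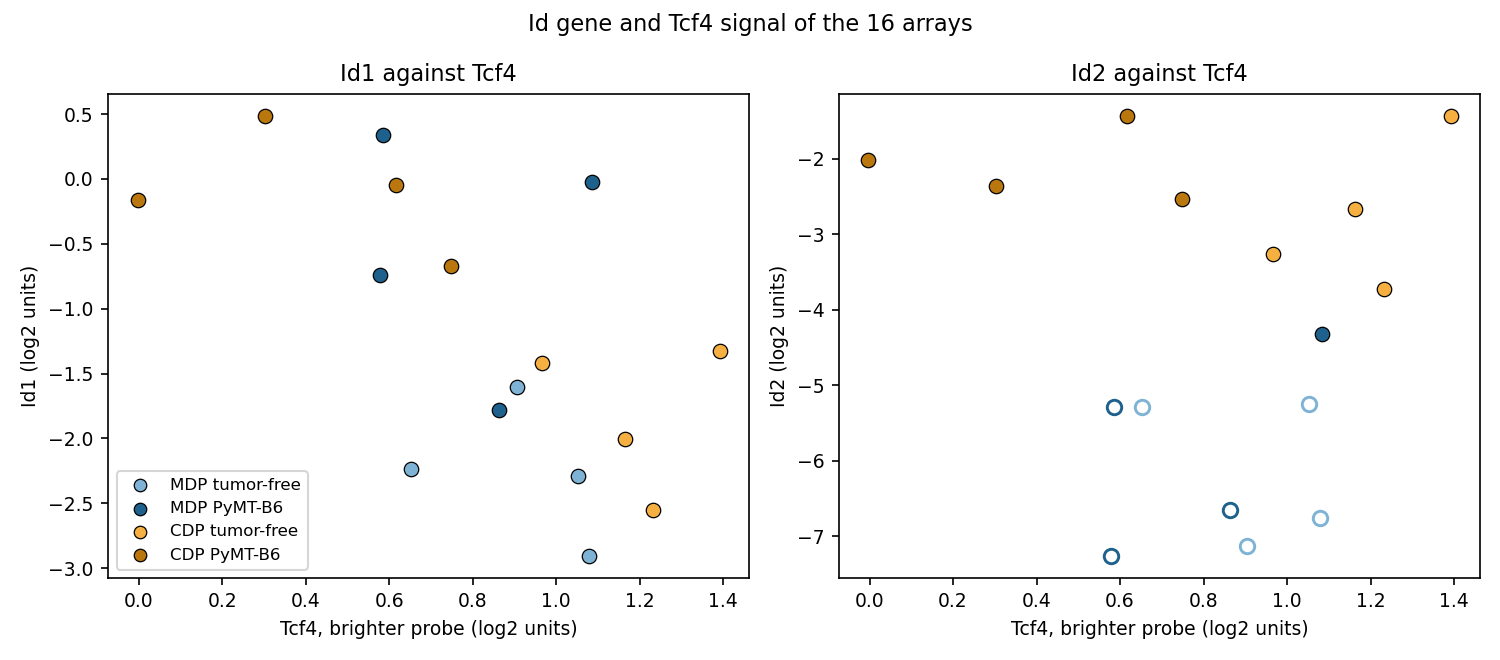
Id1 (left) and Id2 (right) signal of each array against that of the brighter Tcf4 probe, in log2 units relative to the array's 75th percentile. Points are the 16 samples, open where the Id gene was not well above background. CDP PyMT-B6 samples lie at low Tcf4 and high Id1, with MDP PyMT-B6 replicates 3 and 4 near them, and CDPs lie above MDPs in Id2.

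Among genes that TCF4 is known to activate in pDCs, all that were called with tumor in CDPs were lower. Of 16 listed genes, all tested, 4 were called lower and 0 higher in CDP PyMT-B6 against CDP tumor-free, and by sign 12 were lower and 4 higher (Siglech 0.37, Ccr9 0.80, Pacsin1 0.28 and Blnk 0.62, not called), where 1.76% of 21911 genes were called in either direction. The list median was -0.37 and that of all genes 0.09. Spib, an Ets factor of pDCs, fell by 3.13 (limma adjusted p = 0.021), from a range of -2.39 to -0.78 to one of -5.53 to -3.99 that was above background on 2 of 4 arrays. Runx2, which governs pDC exit from bone marrow, fell by 2.96 (limma adjusted p = 0.0015), from a range of -0.22 to 0.26 to one of -4.02 to -1.93. Bcl11a and Bst2 fell by 0.85 and 0.69 (limma adjusted p = 0.033 and 0.037). In MDPs 0 of 16 were called, against 0.0776% of all genes, with a list median of -0.22 beside -0.14 for all, and Irf7 had the lowest adjusted p (-2.23, limma adjusted p = 0.26).

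The same list was higher in CDPs than in MDPs of tumor-free mice, for 16 of 16 genes by sign and 6 by the test, where 5.97% of all genes were called. The largest were Spib (4.15), Irf7 (2.80), Runx2 (1.82) and Bcl11a (1.11), and the list median was 0.73 against 0.02. This comparison shares the CDP tumor-free arrays with the tumor comparison in CDPs. In PyMT-B6 mice 2 of 16 were called higher in CDPs, Irf7 (3.66, limma adjusted p = 0.0024) and Tlr9 (1.09, limma adjusted p = 0.041), where 7.05% of all genes were called. By sign 14 of 16 were higher and 2 lower there, with a list median of 0.67 beside 0.24 for all genes. The pDC markers, some of which are on this list too, had a log2 summed signal of 3.72 to 4.89 in CDP tumor-free and 4.27 to 5.33 in CDP PyMT-B6. That sum was led by Siglech, with 4.10 ± 0.68 and 4.47 ± 0.54 (SD, n = 4). Its part in these differences was not tested.

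Among transcription factors that act beside Id2 in conventional dendritic cells, 4 of 11 were called higher in CDPs in each tumor state and 0 lower, beside 5.97% and 7.05% of all genes called in either direction. In tumor-free mice they were Irf4 (3.10, limma adjusted p = 6.2e-04), Klf4 (1.98), Bcl6 (1.60, limma adjusted p = 1.6e-05) and Notch2 (0.99). Irf4, Klf4 and Notch2 are known mainly for the cDC2 branch, and Bcl6 represses alternative fates in cDC1s. In PyMT-B6 mice they were Irf4 (at least 4.19-fold higher, with the MDP signal above background on 0 of 4 arrays), Zbtb46 (1.76), Bcl6 (1.28) and Klf4 (1.21). Batf3, the cDC1 factor, was not called with tumor in CDPs (-0.46, limma adjusted p = 0.38). The list median was 0.65 and 0.58 in CDPs against MDPs, beside 0.02 and 0.24 for all genes. With tumor 0 of 11 were called in CDPs and 0 in MDPs, beside 1.76% and 0.0776% of all genes. Of 7 cDC1 markers only 3 were tested, and the monocyte and macrophage markers summed to 4.56 to 5.29 in MDP PyMT-B6 and 5.47 to 5.59 in CDP PyMT-B6.

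The tissue-restricted bHLH factors that pair with E proteins were lower in CDPs where they were called. Of 10 tested of 16 listed, 3 were called lower in tumor-free CDPs and 2 in PyMT-B6 CDPs, beside the same 5.97% and 7.05% of all genes. Tal1, the erythroid and stem cell partner of E proteins, differed by -1.28 and -0.95 (limma adjusted p = 0.0024 and 0.015). The erythroid markers Klf1 (-2.77 and -2.78) and, without tumor, Car1 (-3.32) were called lower in CDPs too. By sign 4 of the 6 tested erythroid markers were lower and 2 higher in each tumor state. The higher ones were the hemoglobin genes Hbb-b1 (1.52 and 1.24) and Hba-a1 (0.81 and 0.28), not called. The part of erythroid cells in the Tal1 difference was not tested. Bhlha15 (Mist1) was at background in CDPs and at least 3.13-fold and 3.12-fold lower there in tumor-free and PyMT-B6 mice, and Ascl2 differed by -1.38 in tumor-free mice. With tumor 0 of 10 were called in CDPs and 0 in MDPs, beside 1.76% and 0.0776% of all genes. Among cofactors, Cbfa2t3 (ETO2), a corepressor in Tal1 and E protein complexes, was 1.02 and 0.76 higher in CDPs (limma adjusted p = 7.4e-04 and 0.0059), and Rcor1 was -0.73 in CDPs of PyMT-B6 mice.

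Known E protein targets of the B and T lineages moved in both directions. Gfi1, a repressor in granulocyte and lymphoid development, was lower in CDPs than MDPs by -4.42 without tumor (limma adjusted p = 1.5e-05) and -2.91 with tumor, and rose by 1.73 with tumor in CDPs (limma adjusted p = 0.038). Its signal was -3.81 to -2.47 in CDP tumor-free and -2.89 to -0.96 in CDP PyMT-B6. Cdkn1a, which encodes the cell cycle inhibitor p21, rose by 1.01 with tumor in CDPs (limma adjusted p = 0.034). Foxo1 was 1.06 higher in CDPs than MDPs of tumor-free mice, and Cdkn1a 1.43 higher in those of PyMT-B6 mice. The other 15 of 17 tested targets were not called with tumor in CDPs, where 1.76% of all genes were called. By sign 9 of the 17 were higher and 8 lower. Among those not called Vpreb3 changed most (-2.29, limma adjusted p = 0.077), with its CDP PyMT-B6 signal at background. In MDPs 0 of 17 were called, beside 0.0776% of all genes. By sign 3 were higher and 14 lower in MDPs, with a list median of -0.52 beside -0.14 for all genes. For CDPs against MDPs 1 was called higher and 1 lower in each tumor state. Of all genes 5.97% and 7.05% were called there.

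Among receptors upstream of Id genes, calls were made between the progenitors and none with tumor. The type I receptors Acvrl1 and Acvr1 and the type II receptor Bmpr2 were higher in CDPs by 1.29, 0.75 and 0.87 without tumor (limma adjusted p = 0.0081, 0.010 and 0.045) and by 1.42, 0.64 and 0.83 with tumor. Smad3, a signal transducer of TGF-beta, was lower by -1.47 in CDPs of PyMT-B6 mice (limma adjusted p = 0.0048). Of 14 tested receptor and SMAD genes, 3 were called higher in CDPs in each tumor state. Of all genes 5.97% and 7.05% were called in either direction. With tumor 0 of 14 were called in CDPs and 0 in MDPs, beside 1.76% and 0.0776% of all genes. The list medians with tumor were -0.21 and -0.13, beside 0.09 and -0.14 for all genes. Among 9 tested SMAD target genes other than Id genes, Smad6, an inhibitory SMAD, had the lowest adjusted p with tumor in CDPs (1.68, limma adjusted p = 0.16), and Tgif1 was lower in CDPs by -0.97 in each tumor state (limma adjusted p = 0.0024 and 0.0025).

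**Figure D4:**
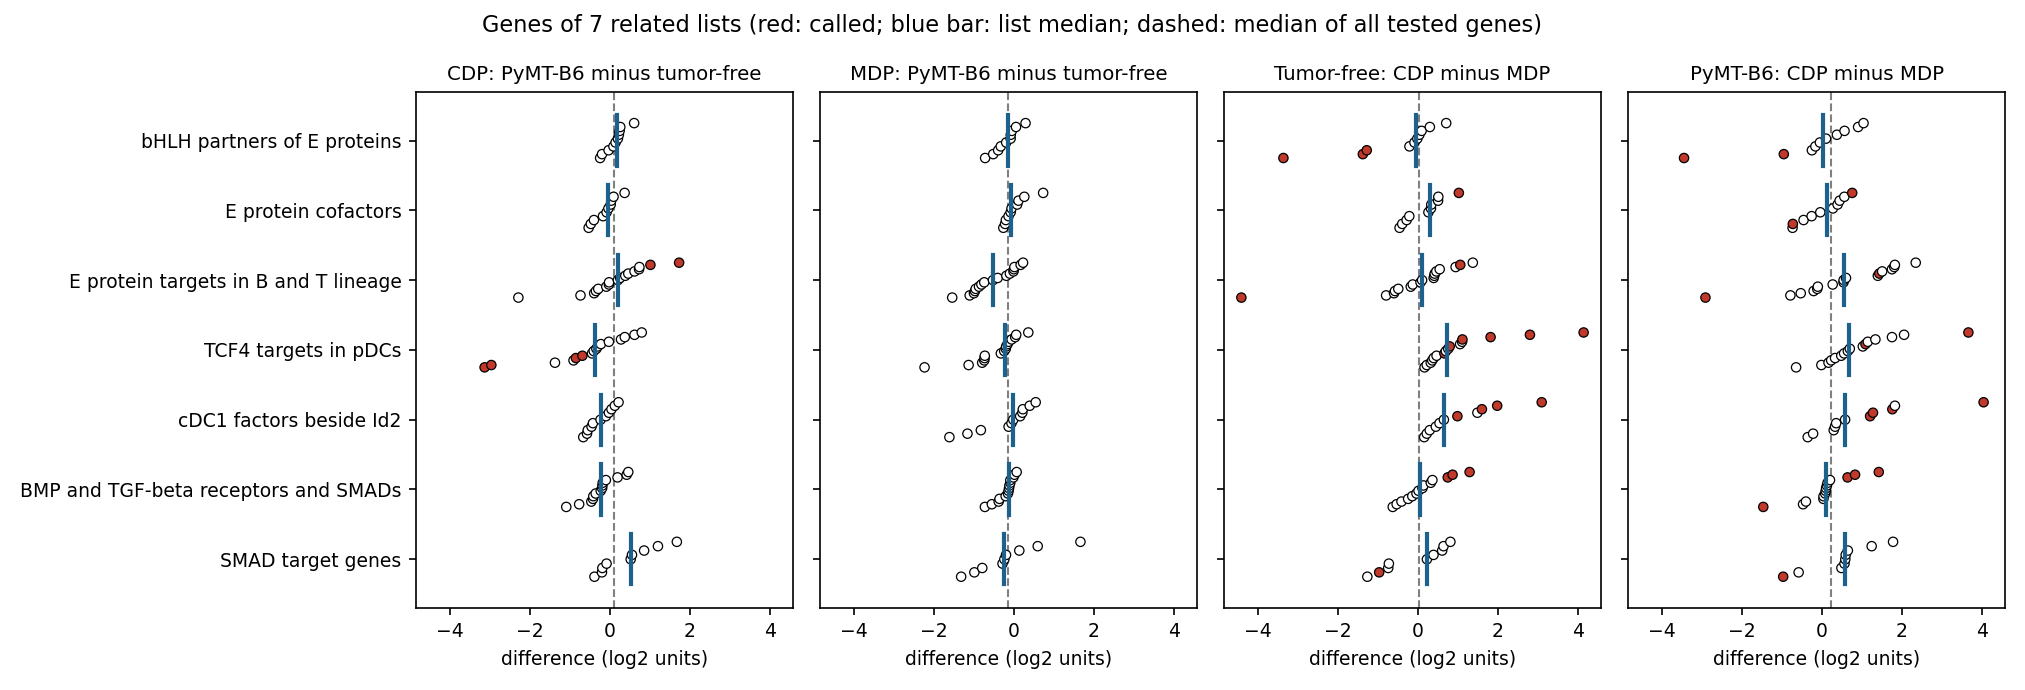
Differences between groups in log2 units for the tested genes of 7 lists related to Id and E proteins, in 4 comparisons. Each point is a gene, red if called, the blue bar is the list median and the dashed line the median of all 21911 tested genes. The median of the TCF4 targets was -0.37 with tumor in CDPs and 0.73 for CDPs against MDPs of tumor-free mice.

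The genes whose pattern over the 16 arrays was most like that of a member were found for the 4 members above background on every array, after removing differences between slides, among 13311 genes. For Id1 they were Abhd5, Nrg1 and Slc35c1 (Pearson r 0.97, 0.97 and 0.96). With slide differences kept these were 0.77, 0.74 and 0.32. For Tcf4 they were Ubald1, B4galt4 and H2-Oa (0.94, 0.93 and 0.92, and 0.75, 0.94 and 0.91 with slides kept). For Tcf12 they were Arhgap35, Sde2 and Ncor1 (0.85, 0.85 and 0.84, and 0.60, 0.72 and 0.84 with slides kept). For Tcf3 they were Phtf1, Tmem161b and Bcl2l14 (0.87, 0.86 and 0.85, and -0.23, 0.62 and 0.46 with slides kept). These are descriptions over arrays that share groups and slides. Each r was picked as among the highest of 13311, and how high r runs by such selection alone was not tested.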

How the data were processed

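Gene expression was measured in 16 samples on one-color (Cy5) Agilent mouse arrays. The authors deposited 1 scanner table per array (Agilent Feature Extraction 11.5.1.1), in which the processed signal is a background-subtracted intensity with no scaling between arrays. The authors also deposited a table of log2 values for 26793 probes, used as an alternative only. The submitters' notes name limma. Groups and replicate numbers follow the labels.

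Control spots (1377 of 44397) were used only in fitting the normexp alternative. On each array 182 to 289 outlier spots were left out of the probe values, but not of the 75th percentile. Processed signals were taken to log2, scaled by subtracting the 75th percentile of their array, and averaged for spots of 1 probe. No member probe was saturated on any array. The test took 27433 of 39429 probes, those that 3 or more arrays of any group read well above background, and 58.8% to 71.5% of probes were above background per array. In R 4.3.3, limma 3.58.1 fitted all 4 group means together, and p-values were adjusted over all tested probes. The fit was first tested on simulated data. The number of arrays limits the precision (median SE of a difference 0.31). p-values measure the spread between the samples of a group, each from a pair of mice.

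A gene is given by its tested probe with the highest mean, with the other probe beside it. The transcripts of all 10 member probes belong to the same symbol in RefSeq, and 0 probes carry a member's transcript under another name. From each list, called genes were named (at most 4 per comparison, by size), and otherwise those with the lowest adjusted p. Members and lists were chosen with earlier results of these data known, and no list was tested as a set. At least N-fold bounds compare group means with the dimmest probe above background on each array of the dim group. They leave out the spread between samples. Alternatives were normexp correction (offset 50), quantile and median scaling, other filters, the deposited value table, slide and replicate blocks, fewer groups in the fit, the mean of a gene's probes, and leaving out each array. A slide block for the gene lists was added after seeing the data.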

Additional observations from a re-analysis of the deposited data

Results flagged for a closer look

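A single sample stood apart from the other 3 of its group in 3 of 36 probe and group combinations checked with Dixon's test, of which chance gives about 1 in 20. Id3 in MDP PyMT-B6 replicate 5 was at -4.52, above background, while the other 3 samples were not. Id3 in CDP PyMT-B6 replicate 4 was at -7.37, not above background, while the other 3 were. The brighter Tcf12 probe in CDP tumor-free replicate 3 was at 0.93, above the other 3. For 0 of 9 probes did the tumor change differ between CDPs and MDPs past the threshold.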

How the results depend on the processing

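The Id2 difference between CDPs and MDPs kept its direction under all alternatives that tested it and its call under all but normexp correction. The count of members called in CDPs against MDPs, 1 in each tumor state, was 0 with normexp correction and with only probes above background on all 16 arrays, where Id2 is not tested, and stayed at 1 on leaving out any sample. With tumor in CDPs the count of genes called by the brightest probe was 0. It was 1 with quantile normalization and with the mean of a gene's probes (Tcf4 at -0.82 and -1.78), 2 with slide as a block and 2 with the filter on all 16 arrays (Id1 and Tcf4), and 0 to 1 on leaving out a sample. In MDPs and for the difference of both changes it was 0 throughout.

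Deviations of samples of the same replicate number had r of -0.69 to 0.48, over 0.1 in 8 of 24 pairs. For replicates 2 to 5, r was 0.15, 0.48, 0.14 and 0.02 between CDP tumor-free and CDP PyMT-B6. Between MDP tumor-free and MDP PyMT-B6 it was -0.10, -0.56, -0.48 and 0.44. Within a tumor state, r between MDPs and CDPs was 0.03, -0.63, 0.06 and -0.47 in tumor-free and -0.05, 0.32, 0.46 and 0.14 in PyMT-B6 mice. Samples of the same number did not all share a slide, and the part of slides in these r was not tested. The numbers were not used as pairs in the main fit, which treats MDP and CDP samples as independent. Whether those of the same number came from the same mice was not settled here. With the replicate number as a block the CDP tumor count was 1 (Tcf4, -0.77, limma adjusted p = 0.035), that of CDPs against MDPs was 1 in each tumor state, and the other counts were 0. The numbers of all tested probes called in CDPs with tumor were 494, 371 with that block, 1248 with slide as a block and 56 with only the CDP groups fitted.

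Over 25 member changes of at least 1 SE, 440 recomputed values held 0 of opposite sign, 8 lost calls and 10 gained calls. Another 20 changes were under 1 SE. Of their 388 recomputed values 50 had the opposite sign (-0.39 to 0.35) and 0 were called. The Id minus E difference with tumor in MDPs (0.35) was -0.036 without MDP tumor-free replicate 2 and -0.036 to 0.70 on leaving out any 1 sample, and that of Id2 minus Tcf4 in MDPs (0.37) was -0.045 without MDP PyMT-B6 replicate 2 and -0.045 to 0.77 over all such omissions. Quantile normalization moved the median of all probes with tumor in MDPs from -0.12 to 0.0012 and in CDPs against MDPs with tumor from 0.19 to -0.0034, where 976 of 1993 called probes were higher in CDPs and 796 of 1902 with quantile normalization. The slide block gave 5 called TCF4 targets in CDPs with tumor in place of 4. Signals near background (Id2 in MDPs, Id3, Id4 and the second Tcf4 probe) bound the sizes that can be given. The cause of these changes was not tested, except where an alternative tests fewer probes or samples.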
